A study of Mus musculus with 15 samples.

Results

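The genes described here are 47 mouse genes of the cell division cycle, chosen by name from 20145 genes named on the array. They comprise 13 genes that copy DNA or make its building blocks, 9 genes of the G1/S transition, 22 genes of mitosis and 3 inhibitors of cyclin-dependent kinases. Their 63 probes were found through the RefSeq accession printed beside each probe, and for each gene the brightest probe that passed a filter on dim signal was used. Of the 47 genes, 45 were measured. The G1/S cyclin gene Ccne2 and the kinetochore gene Cenpf were not well above background on any array.

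Expression was measured in liver macrophages of male mice, 5 arrays in each of 3 groups, with RNA pooled from 7 to 9 mice for each array. WT_SD cells were CD11c-negative macrophages of wildtype mice kept on a standard diet, whose age the sources used here do not give. MC4R_WD cells came from MC4R-KO mice, which lack the hypothalamic receptor that restrains food intake, fed a Western diet for 20 weeks from the age of 8 weeks, and were split into CD11c-negative and CD11c-positive macrophages. All 3 groups were sorted as cells with high F4/80, a macrophage surface protein, from livers digested with collagenase, and CD11c is the integrin encoded by Itgax. Genotype and diet differed together between WT_SD and MC4R_WD and cannot be told apart, whereas the MC4R_WD groups differed in CD11c alone as far as the labels say. No label says that the pools of a group came from separate mice or sorts, so p-values speak of the spread among these arrays alone, and that spread may be technical.

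A dividing cell first loads the MCM helicase onto origins of replication with the help of Cdc6 and Cdt1, then copies its DNA with the sliding clamp Pcna while ribonucleotide reductase and thymidylate synthase supply nucleotides. Cyclin D with Cdk4 or Cdk6, and cyclin E with Cdk2, open this phase by releasing E2F factors, and cyclin B with Cdk1 later drives mitosis, in which kinesins, aurora kinases and checkpoint proteins separate the chromosomes. Inhibitors such as p21 (Cdkn1a) and p27 (Cdkn1b) hold these kinases back. Resident macrophages of the liver are known to renew themselves by division in place, and monocytes that enter the organ can also divide.

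Levels are log2 of the background-subtracted signal minus the 75th percentile of the same array, so a level of 0 is that percentile, and levels of different probes were not set against each other. A gene was called where limma gave an adjusted p under 0.05 (Benjamini-Hochberg over 13390 genes), and counts of at least 1.5-fold are given beside it. Differences are in log2 units with their standard error (SE), n = 5 arrays a group. In bulk samples, fewer cells that express a gene and less RNA of it per cell cannot be told apart. The macrophage genes Adgre1 (F4/80), Csf1r and Lyz2 were well above background on all 15 arrays, and Itgax had a mean level of 4.21 in WT_SD, 5.93 in the CD11c-negative and 7.29 in the CD11c-positive MC4R_WD arrays. Mc4r was not well above background on any array, so it does not check the genotype labels. The arrays lay on 2 slides, each of which held arrays of every group.

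Among the MC4R_WD macrophages, the CD11c-positive cells had higher levels of most division genes than the CD11c-negative cells. Of the 45 measured genes, 38 were higher and 2 lower, against 29.9% and 23.2% of all genes tested, and 18 were at least 1.5-fold higher, against 4.79%, and none 1.5-fold lower, against 4.10%. The median difference of the measured genes was 0.49, and that of all genes 0.015. All 5 CD11c-positive arrays lay above all 5 CD11c-negative arrays for 38 of them (22.9% of all genes) and below them for 2 (16.7%). The kinase gene Cdk6 passed the filter only through the CD11c-positive arrays, which favours a rise there. Under normexp, another background correction, its difference was 0.17 and did not pass (limma, adjusted p = 0.09). With no filter the counts over all 47 genes were again 38 higher and 2 lower. Within slide 1 the median difference was 0.50, and within slide 2 it was 0.47.

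**Figure D1:**
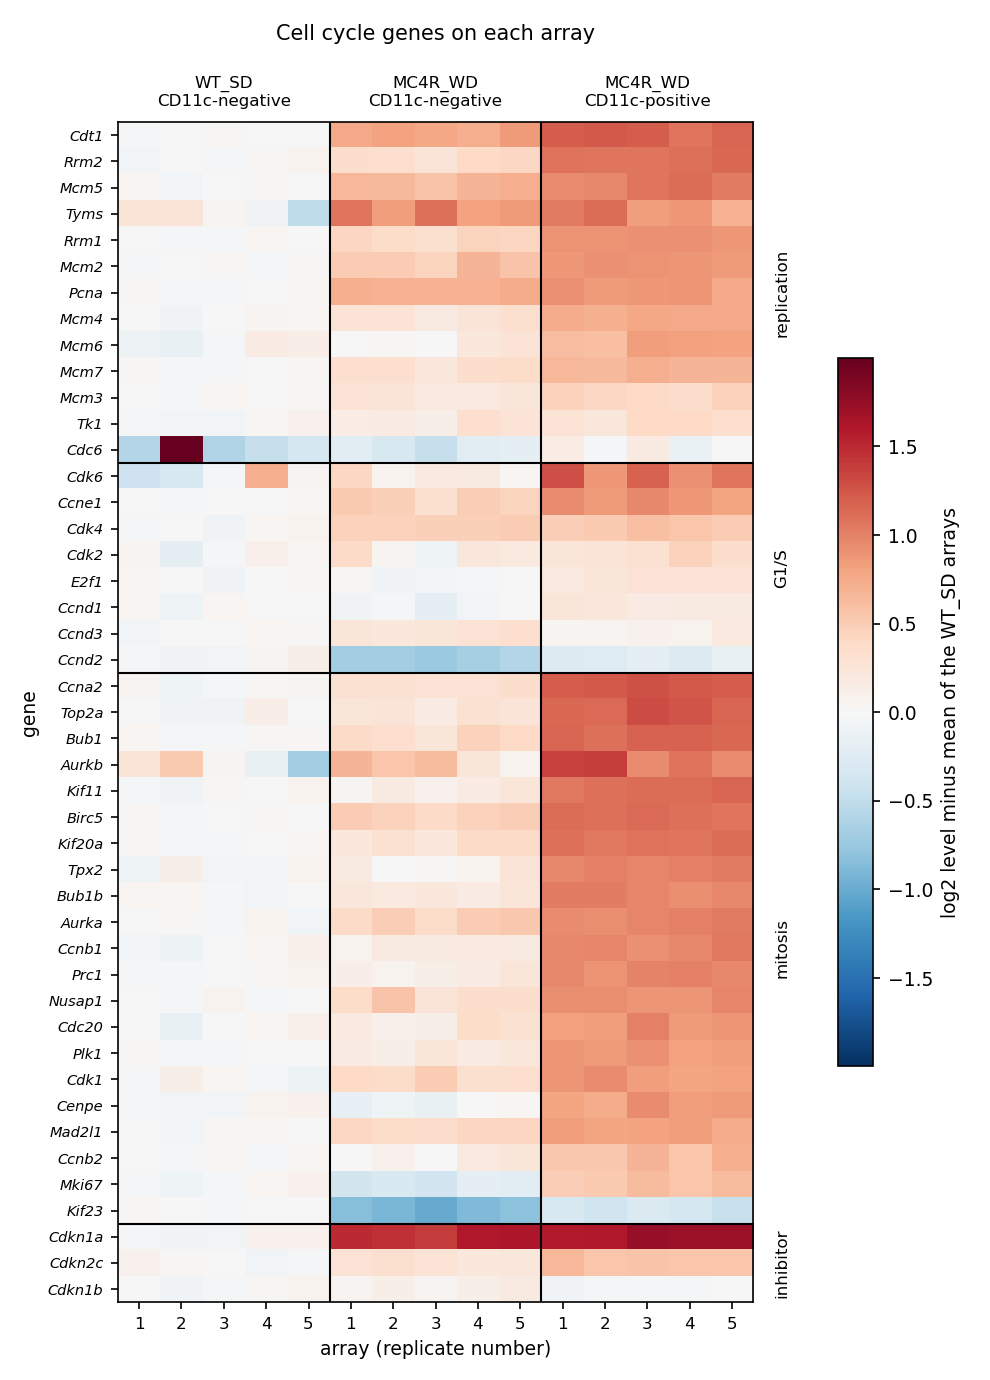
Level of each of the 45 measured genes (rows, grouped by role and ordered by the difference of CD11c-positive arrays from WT_SD) on each of the 15 arrays (columns, 5 per group), drawn as log2 level minus the mean of the WT_SD arrays, red for higher and blue for lower. The mitosis rows turn from pale to red between the CD11c-negative and the CD11c-positive columns (median difference 0.77), Cdkn1a is deep red in both MC4R_WD groups, and the single deep red square among the WT_SD columns is Cdc6 on array 2.

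CD11c-negative MC4R_WD macrophages differed less from WT_SD, and the direction of many genes there depended on how the arrays were scaled. Of the 45 genes, 32 were higher and 3 lower (all genes 48.3% and 28.5%), of which 5 rises and 2 falls reached 1.5-fold, no larger a share than among all genes (14.0% and 12.2%). The arrays did not overlap for 29 higher genes (all genes 40.8%) and 3 lower genes (23.4%). The median of the measured genes was 0.26, which is 0.13 above the median of all genes (0.13). Scaled by the 75th percentile over probes detected on every array, the median of all genes moved to -0.10, and 18 of the 45 genes were higher and 11 lower. Over all genes, 62.9% of the calls were higher as scaled here, 49.0% with quantile normalization and 38.9% with that percentile.

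CD11c-positive MC4R_WD macrophages were higher than WT_SD for 41 of the 45 genes and lower for 2, against 51.4% and 26.3% of all genes tested. A rise of at least 1.5-fold was seen for 32 genes (17.1% of all genes) and such a fall for none (12.8%), and the arrays did not overlap for 41 higher genes (46.4%) and 2 lower ones (22.9%). The median was 0.88, or 0.71 above that of all genes (0.16). The share of calls over all genes that were higher was 66.2%, 54.4% with quantile normalization and 41.5% with the percentile over probes detected on every array. The 3 comparisons share arrays and are given side by side, each with its own values.

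The replication genes stood higher in CD11c-negative MC4R_WD cells than in WT_SD and higher again in CD11c-positive cells. Against WT_SD, 11 of the 13 genes were higher in CD11c-negative cells and none lower (all genes 48.3% and 28.5%). The median was 0.35, or 0.22 above all genes. With quantile normalization 8 were higher and 1 lower, against 4835 and 5040 of all 13390 genes. Against CD11c-negative cells, 10 were higher in CD11c-positive cells and none lower (all genes 29.9% and 23.2%). The median there was 0.35, and 2 were at least 1.5-fold higher (all genes 4.79%). Against WT_SD, 12 were higher and none lower in CD11c-positive cells (all genes 51.4% and 26.3%), with a median of 0.85. Of the 12, 10 were at least 1.5-fold higher (all genes 17.1%). The median of the 13 genes, taken on each array relative to the WT_SD mean, ran from 0.25 to 0.42 on the CD11c-negative arrays and from 0.76 to 0.87 on the CD11c-positive arrays.

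Cdt1 encodes the factor that brings the MCM helicase to origins. Its level was 2.94, 2.98, 2.98, 2.96 and 2.96 on the WT_SD arrays, 3.73, 3.76, 3.74, 3.69 and 3.81 on the CD11c-negative arrays, and 4.17, 4.18, 4.17, 4.04 and 4.13 on the CD11c-positive arrays. The 3 groups did not overlap. CD11c-negative cells were 1.72-fold above WT_SD (log2 difference 0.78 ± 0.031, adjusted p = 1.08e-11) and CD11c-positive cells 1.31-fold above CD11c-negative cells (0.39 ± 0.031, adjusted p = 1.03e-07). Mcm5, a subunit of the helicase, read 2.55, 2.46, 2.52, 2.54 and 2.52 in WT_SD, 3.18, 3.17, 3.09, 3.20 and 3.24 in CD11c-negative cells, and 3.47, 3.47, 3.58, 3.64 and 3.53 in CD11c-positive cells. These groups also stood apart, with differences of 0.66 ± 0.038 (adjusted p = 6.95e-10) and 0.36 ± 0.038 (adjusted p = 1.78e-06).

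The other helicase subunits rose less evenly. Mcm2 rose in both steps (0.54 and 0.34), as did Mcm7 (0.32 and 0.35), Mcm4 (0.26 and 0.49) and Mcm3 (0.23 and 0.19), but with the percentile over probes detected on every array Mcm3 stood at -0.0043 in CD11c-negative cells against WT_SD, and Mcm4 at 0.026, neither of which passed the test. Mcm6 did not pass against WT_SD in CD11c-negative cells (0.10 ± 0.078, adjusted p = 0.244). With the slide as a block in limma the same difference of 0.10 passed (adjusted p = 0.000344), as it did within slide 1 (0.11) and within slide 2 (0.096), whereas quantile normalization turned it to -0.20. It was 1.55-fold higher in CD11c-positive than in CD11c-negative cells (0.63 ± 0.078, adjusted p = 9.03e-06). From WT_SD to CD11c-positive cells the 6 subunits differed by 0.42 (Mcm3) to 1.02 (Mcm5), and all 6 passed the test.

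Among the enzymes that supply nucleotides, Tyms (thymidylate synthase) and the ribonucleotide reductase genes differed in which step held their rise. Tyms read -0.91, -0.90, -1.10, -1.22 and -1.66 in WT_SD, -0.08, -0.32, -0.06, -0.35 and -0.31 in CD11c-negative cells, and -0.11, -0.05, -0.33, -0.30 and -0.47 in CD11c-positive cells. Both MC4R_WD groups lay above WT_SD and overlapped each other, with a difference between them of -0.027 ± 0.13 (adjusted p = 0.881). Rrm2, the small subunit of the reductase, read 1.73, 1.77, 1.75, 1.79 and 1.85 in WT_SD, 2.13, 2.11, 2.03, 2.18 and 2.19 in CD11c-negative cells, and 2.87, 2.84, 2.85, 2.87 and 2.92 in CD11c-positive cells. Here the larger step was the one between the MC4R_WD groups, 0.74 ± 0.034 (adjusted p = 2.23e-10), after 0.35 ± 0.034 above WT_SD. Rrm1, the large subunit, rose by 0.39 and then 0.51. The clamp gene Pcna rose by 0.71 and then 0.14. Tk1, thymidine kinase, stood 0.21 above WT_SD in CD11c-negative cells (-0.07 with quantile normalization), and the further difference of 0.12 ± 0.05 in CD11c-positive cells did not pass (adjusted p = 0.0614) but did with the slide as a block (0.092, adjusted p = 0.0037).

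A single array decided the result for Cdc6, the partner of Cdt1 in loading the helicase. Its levels were -1.68, 0.90, -1.70, -1.56 and -1.45 in WT_SD, -1.30, -1.41, -1.56, -1.30 and -1.29 in CD11c-negative cells, and -0.95, -1.13, -0.92, -1.23 and -1.10 in CD11c-positive cells. WT_SD array 2 stood far above the other 14 arrays, and with it no comparison of Cdc6 passed (-0.28 ± 0.39 against WT_SD in CD11c-negative cells, adjusted p = 0.525). Without that array the differences were 0.22 (CD11c-negative minus WT_SD), 0.31 (CD11c-positive minus CD11c-negative) and 0.53 (CD11c-positive minus WT_SD), all past the threshold. A dimmer probe of Cdc6 gave 0.44, 0.20 and 0.64, none of which passed.

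**Figure D2:**
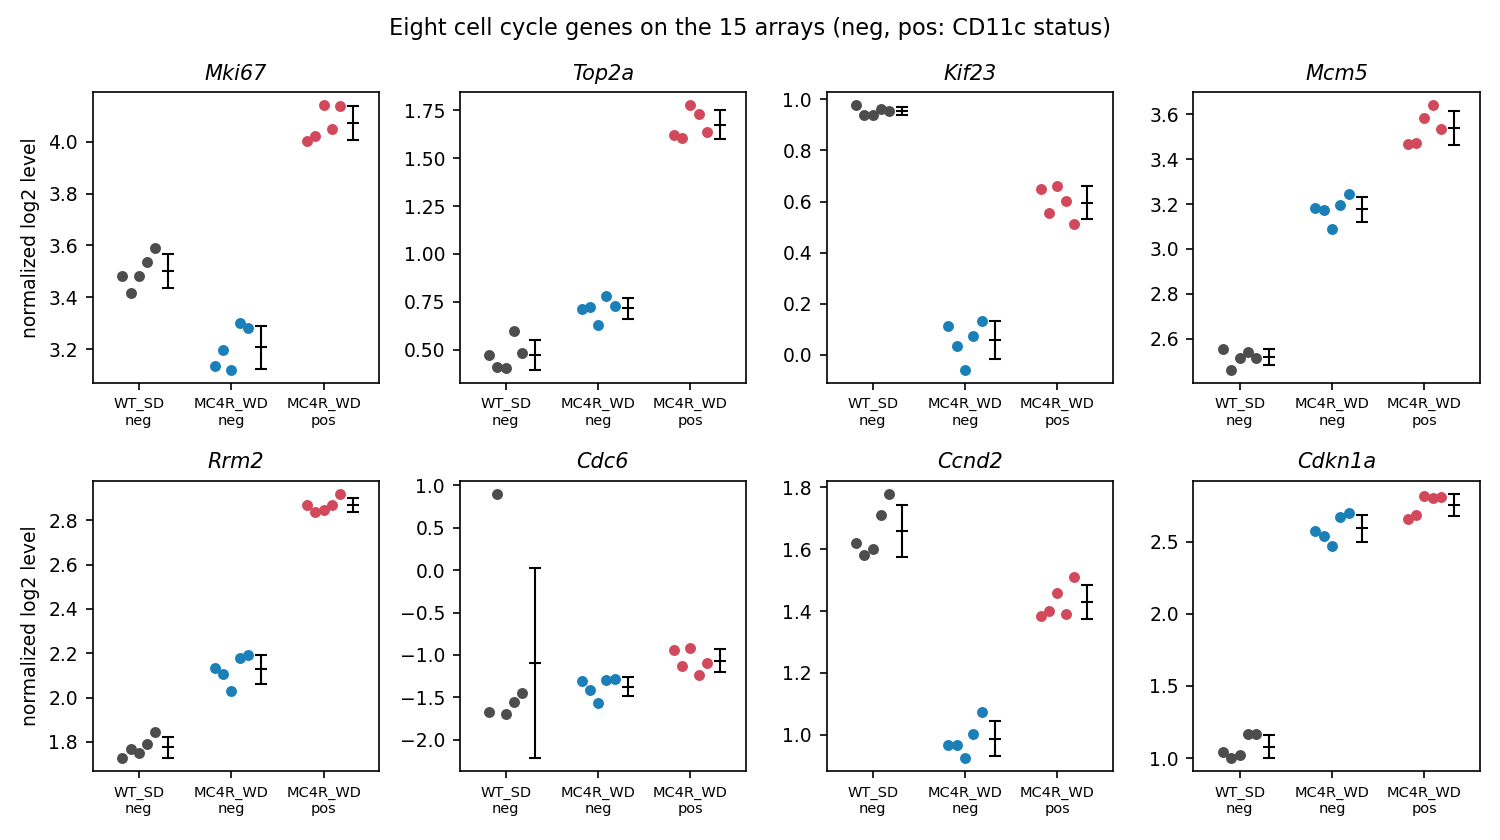
Normalized log2 level (vertical axes, one scale per gene) of 8 genes on the 15 arrays; points are arrays, and bars give mean ± SD of the 5 arrays of a group. Mcm5 and Rrm2 rise over the 3 groups without overlap, Mki67, Kif23 and Ccnd2 are lowest in CD11c-negative MC4R_WD cells, Cdkn1a is far above WT_SD in both MC4R_WD groups, and Cdc6 has 1 WT_SD array at 0.90.

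The G1/S genes moved in different directions. Of the 8 measured genes, 3 were higher and 1 lower in CD11c-negative cells than in WT_SD, shares of 37.5% and 12.5% that lay below those of all genes (48.3% and 28.5%). In CD11c-positive cells 5 were higher and 1 lower than in CD11c-negative cells (all genes 29.9% and 23.2%), and 7 were higher and 1 lower than in WT_SD (all genes 51.4% and 26.3%). Of those 7, 2 were at least 1.5-fold higher, Cdk6 and Ccne1 (all genes 17.1%). With the percentile over probes detected on every array, 3 of the 8 were higher and 2 lower, with Ccnd1 at -0.051 and Ccnd3 at -0.16. Under that scaling 4293 of all 13390 genes were higher than in WT_SD and 6041 lower. The counts of G1/S genes include Cdk6.

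Ccne1, cyclin E1, which opens DNA synthesis with Cdk2, read 0.37, 0.35, 0.37, 0.39 and 0.42 in WT_SD, 0.91, 0.86, 0.69, 0.87 and 0.83 in CD11c-negative cells, and 1.32, 1.24, 1.34, 1.24 and 1.17 in CD11c-positive cells. Its 3 groups did not overlap, and both steps were of like size (0.45 ± 0.041 and 0.43 ± 0.041, adjusted p = 1.12e-07 and 7.03e-07). Its partner Cdk2 passed in neither step (0.16 ± 0.079 in each), only in CD11c-positive cells against WT_SD (0.32 ± 0.079, adjusted p = 0.00194).

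The D cyclins, which tie division to growth signals, did not move together. Ccnd2 read 1.62, 1.58, 1.60, 1.71 and 1.78 in WT_SD, 0.97, 0.97, 0.92, 1.00 and 1.07 in CD11c-negative cells, and 1.38, 1.40, 1.46, 1.39 and 1.51 in CD11c-positive cells. It was lowest in the CD11c-negative group, with no overlap, by -0.67 ± 0.043 against WT_SD (adjusted p = 2.15e-09), and CD11c-positive cells stood 0.44 ± 0.043 above that (adjusted p = 7.86e-07). Ccnd3 went the other way and was 0.27 ± 0.034 higher in CD11c-negative cells than in WT_SD (-0.076 with quantile normalization), then -0.17 ± 0.034 in CD11c-positive against CD11c-negative cells (adjusted p = 0.000527). A dimmer Ccnd3 probe gave 0.12 and -0.092, neither of which passed. Ccnd1 differed by -0.067 ± 0.035 in the first comparison, which did not pass, and was 0.26 ± 0.035 higher in the second.

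The kinase partners of the D cyclins also differed. Cdk4 was 0.47 ± 0.031 above WT_SD in CD11c-negative cells and no further rise passed in CD11c-positive cells (0.059 ± 0.031, adjusted p = 0.121). Cdk6 was well above background on 1 WT_SD, 1 CD11c-negative and 4 CD11c-positive arrays. Its levels were -4.38, -4.29, -4.00, -3.24 and -3.91 in WT_SD, -3.56, -3.90, -3.77, -3.79 and -3.92 in CD11c-negative cells, and -2.67, -3.09, -2.78, -3.06 and -2.90 in CD11c-positive cells. The CD11c-positive arrays lay above the rest, near the background of the array. E2f1, the activating transcription factor of this transition, did not pass in CD11c-negative cells against WT_SD (-0.029 ± 0.028) and was 0.29 ± 0.028 higher in CD11c-positive than in CD11c-negative cells (adjusted p = 9.38e-07).

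The mitosis genes rose together between the MC4R_WD groups. All 21 measured genes were higher in CD11c-positive than in CD11c-negative cells (all genes 29.9%), and their arrays did not overlap (all genes 22.9%). The differences ran from 0.40 (Mad2l1) to 0.96 (Kif11), with a median of 0.77. Of the 21, 15 were at least 1.5-fold higher (all genes 4.79%). Within slide 1 the median was 0.81 and within slide 2 it was 0.74. The count stayed at 20 or 21 under every alternative tried, 20 where the filter left 1 gene fewer to test or where the probes of a gene were averaged and Tpx2 did not pass.

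Against WT_SD, the mitosis genes of CD11c-negative cells differed by little. A rise passed for 15 and a fall for 2 (all genes 48.3% and 28.5%), with a median of 0.22, or 0.083 above all genes. None of the 15 reached 1.5-fold (all genes 14.0%). With the percentile over probes detected on every array, 7 were higher and 7 lower, with a median of -0.019. Under that scaling 3980 of all 13390 genes were higher and 6255 lower, with a median of -0.10. Aurka, Birc5, Bub1, Ccna2, Cdk1, Mad2l1 and Nusap1 were the 7 whose rise passed under every alternative tried. In CD11c-positive cells against WT_SD, 20 of the 21 were higher and 1 lower (all genes 51.4% and 26.3%), with a median of 0.97. Of the 20, 19 were at least 1.5-fold higher (all genes 17.1%). The median of the 21 genes on each array relative to the WT_SD mean ran from 0.19 to 0.26 on the CD11c-negative arrays and from 0.95 to 0.97 on the CD11c-positive arrays.

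Top2a, the topoisomerase that untangles sister chromosomes, read 0.47, 0.41, 0.41, 0.60 and 0.48 in WT_SD, 0.71, 0.73, 0.63, 0.78 and 0.73 in CD11c-negative cells, and 1.62, 1.60, 1.78, 1.73 and 1.64 in CD11c-positive cells. The CD11c-positive arrays stood far above the rest, 1.94-fold over CD11c-negative cells (0.96 ± 0.045, adjusted p = 3.07e-10), whereas the step from WT_SD was 0.24 ± 0.045 and with the percentile over probes detected on every array 0.0064, which did not pass. Ccna2, cyclin A2, read 1.00, 0.85, 0.90, 0.97 and 1.00 in WT_SD, 1.25, 1.24, 1.23, 1.23 and 1.29 in CD11c-negative cells, and 2.15, 2.17, 2.21, 2.17 and 2.15 in CD11c-positive cells. It had the largest rise of the mitosis genes from WT_SD to CD11c-positive cells, 2.34-fold (1.22 ± 0.03, adjusted p = 3.85e-14), and 0.92 ± 0.03 of it lay between the MC4R_WD groups.

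Cdk1, the kinase that drives entry into mitosis, divided its rise more evenly. It read 1.19, 1.33, 1.25, 1.19 and 1.11 in WT_SD, 1.62, 1.58, 1.72, 1.54 and 1.54 in CD11c-negative cells, and 2.10, 2.16, 2.04, 2.00 and 2.02 in CD11c-positive cells. The groups did not overlap, and the steps were 0.39 ± 0.046 and 0.47 ± 0.046 (adjusted p = 2.5e-06 and 1.04e-06). A dimmer kept probe of Cdk1 gave 0.38, which passed, and 0.36, which did not. The cyclin partners of Cdk1, Ccnb1 and Ccnb2, rose by 0.81 and 0.49 between the MC4R_WD groups, after differences from WT_SD of 0.16 and 0.11. With the percentile over probes detected on every array, these differences from WT_SD turned to -0.076 and -0.13. Dimmer Ccnb1 probes gave 0.41, which passed, and 0.083, which did not, against WT_SD, and 0.74 and 0.62 between the MC4R_WD groups.

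The proliferation marker Mki67, whose product coats mitotic chromosomes, was lowest in CD11c-negative MC4R_WD cells. It read 3.48, 3.42, 3.48, 3.54 and 3.59 in WT_SD, 3.13, 3.20, 3.12, 3.30 and 3.28 in CD11c-negative cells, and 4.00, 4.02, 4.14, 4.05 and 4.14 in CD11c-positive cells. No groups overlapped. CD11c-negative cells were 1.23-fold below WT_SD (-0.29 ± 0.045, adjusted p = 3.12e-05), CD11c-positive cells 1.82-fold above CD11c-negative cells (0.86 ± 0.045, adjusted p = 1.14e-09) and 1.48-fold above WT_SD. A second probe gave -0.29, 0.81 and 0.52, and the call of the first probe was the same under every alternative tried.

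Kif23, a kinesin of the central spindle needed for cytokinesis, was the 1 mitosis gene that was lower in CD11c-positive cells than in WT_SD. It read 0.98, 0.94, 0.94, 0.96 and 0.96 in WT_SD, 0.11, 0.03, -0.06, 0.08 and 0.13 in CD11c-negative cells, and 0.65, 0.55, 0.66, 0.60 and 0.51 in CD11c-positive cells. Every array of either MC4R_WD group lay below every WT_SD array. The differences were -0.90 ± 0.038 (CD11c-negative minus WT_SD, adjusted p = 2.18e-11), 0.54 ± 0.038 (CD11c-positive minus CD11c-negative, adjusted p = 2.86e-08) and -0.36 ± 0.038 (CD11c-positive minus WT_SD, adjusted p = 5.67e-07). Of its partners in cytokinesis, Prc1, which bundles the spindle midzone, and the kinesin gene Kif20a were higher in CD11c-positive cells than in WT_SD (0.96 ± 0.034 and 1.09 ± 0.036).

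The spindle motor and checkpoint genes followed the common course. Kif11, the motor that separates spindle poles, rose by 0.96 ± 0.038 between the MC4R_WD groups, and Cenpe, the kinetochore motor, by 0.91 ± 0.05 after a difference of -0.075 ± 0.05 from WT_SD that did not pass (adjusted p = 0.181, and 0.0112 with the slide as a block). The checkpoint genes Bub1, Bub1b and Mad2l1 rose by 0.79, 0.77 and 0.40, and Cdc20, the activator of chromosome separation that they restrain, by 0.66. The kinase genes Plk1, Aurka and Aurkb rose by 0.68, 0.52 and 0.71, and Birc5 (survivin), which works beside Aurkb, by 0.64. Aurkb was well above background on 3 WT_SD, 4 CD11c-negative and 5 CD11c-positive arrays. The sizes of some rises depended on the processing. Under the alternatives tried, that of Aurkb ran from 0.17 to 0.83 and that of Kif11 from 0.58 to 0.997. Nusap1 and Tpx2, which bind spindle microtubules, rose by 0.54 and 0.89, but a dimmer Tpx2 probe from another accession gave -0.21, which did not pass, and the mean of its probes gave an adjusted p of 0.0514.

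**Figure D3:**
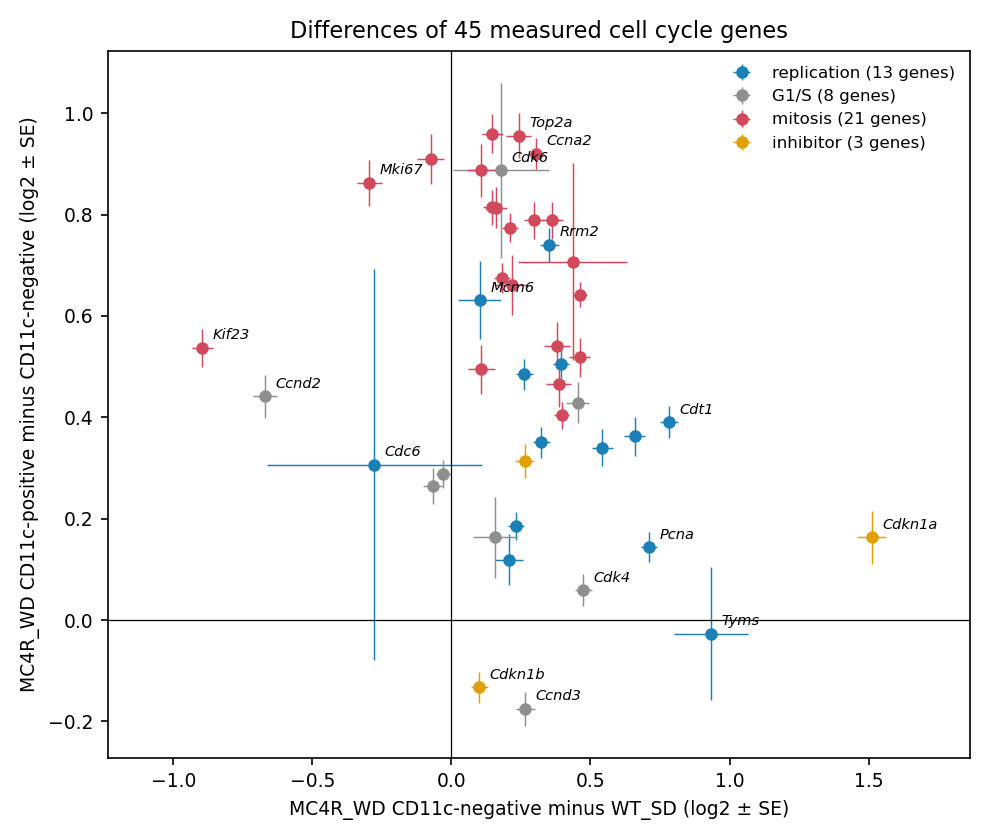
Each point is 1 of the 45 measured genes, with the log2 difference of CD11c-negative MC4R_WD cells from WT_SD on the horizontal axis and that of CD11c-positive from CD11c-negative MC4R_WD cells on the vertical axis (± SE, 5 arrays a group; both axes use the CD11c-negative arrays). The mitosis genes lie between 0.40 and 0.96 on the vertical axis, the replication genes between -0.027 and 0.74, and Cdkn1a lies alone at 1.51 on the horizontal axis; values near 0 on that axis change sign under other scalings.

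The 3 inhibitor genes were each different. Cdkn1a, encoding p21, read 1.04, 1.00, 1.02, 1.16 and 1.17 in WT_SD, 2.57, 2.54, 2.47, 2.67 and 2.70 in CD11c-negative cells, and 2.66, 2.68, 2.81, 2.80 and 2.81 in CD11c-positive cells. Both MC4R_WD groups lay far above WT_SD and overlapped each other. It was 2.85-fold higher in CD11c-negative cells than in WT_SD (1.51 ± 0.053, adjusted p = 2.54e-12), from 1.28 to 1.54 under the alternatives tried, the largest difference among the 45 genes in that comparison. CD11c-positive cells stood 0.16 ± 0.053 above CD11c-negative cells (adjusted p = 0.0176).

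Cdkn2c, encoding p18, an inhibitor of Cdk4 and Cdk6, read 0.71, 0.64, 0.61, 0.57 and 0.57 in WT_SD, 0.90, 0.93, 0.89, 0.83 and 0.85 in CD11c-negative cells, and 1.27, 1.17, 1.19, 1.18 and 1.17 in CD11c-positive cells. It rose without overlap, by 0.26 ± 0.033 (0.028 with the percentile over probes detected on every array, not past the threshold) and 0.31 ± 0.033 (adjusted p = 2.17e-06). Cdkn1b, encoding p27, read 3.62, 3.55, 3.58, 3.63 and 3.68 in WT_SD, 3.67, 3.72, 3.66, 3.72 and 3.78 in CD11c-negative cells, and 3.55, 3.57, 3.59, 3.58 and 3.62 in CD11c-positive cells. Its differences were small: 0.10 ± 0.031 above WT_SD in CD11c-negative cells (-0.17 with quantile normalization) and -0.13 ± 0.031 in CD11c-positive against CD11c-negative cells (adjusted p = 0.00224). CD11c-positive cells did not pass against WT_SD for Cdkn1b (-0.032 ± 0.031, adjusted p = 0.348).

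Promoter sequences of the genes were searched for the elements that textbooks attach to each phase. RefSeq windows (GRCm38.p6, 250 bases before to 50 after each start) were found for 39 of the 47 genes, 44 windows in all, and not for Aurkb, Ccna2, Ccnd1, Ccnd2, Ccne2, Kif20a, Mcm4 and Tpx2. On both strands, the cell cycle homology region TTTGAA, an element of mitotic genes, was in 13 of 19 mitosis windows (68.4%) and 1 of 13 replication windows (7.69%), and in 17.9% of 32851 windows of all genes. E2F sites, the binding letters of the factors that switch on replication genes, were searched in several spellings. The spelling TTCCCGC was searched first, followed by the closely related spelling TTGGCGC. The search further allowed TTCGCGC as a variant of these letters and, as the last of the accepted spellings, TTGCCGC was counted too. At least 1 such site was in 9 of 13 replication windows (69.2%), 3 of 19 mitosis windows (15.8%) and 9.57% of all windows. The CCAAT box was in 9 of 13 replication windows, 16 of 19 mitosis windows (84.2%) and 37.4% of all windows. TTTGAA and CCAAT stood together in 13 of 19 mitosis windows and 6.95% of all. Of the 7 G1/S windows, 1 held an E2F site, 2 a CCAAT box and none TTTGAA. In 2 of the 44 windows a CCAAT box overlapped an E2F site. A match is a description of the letters and not a measured site.

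**Figure D4:**
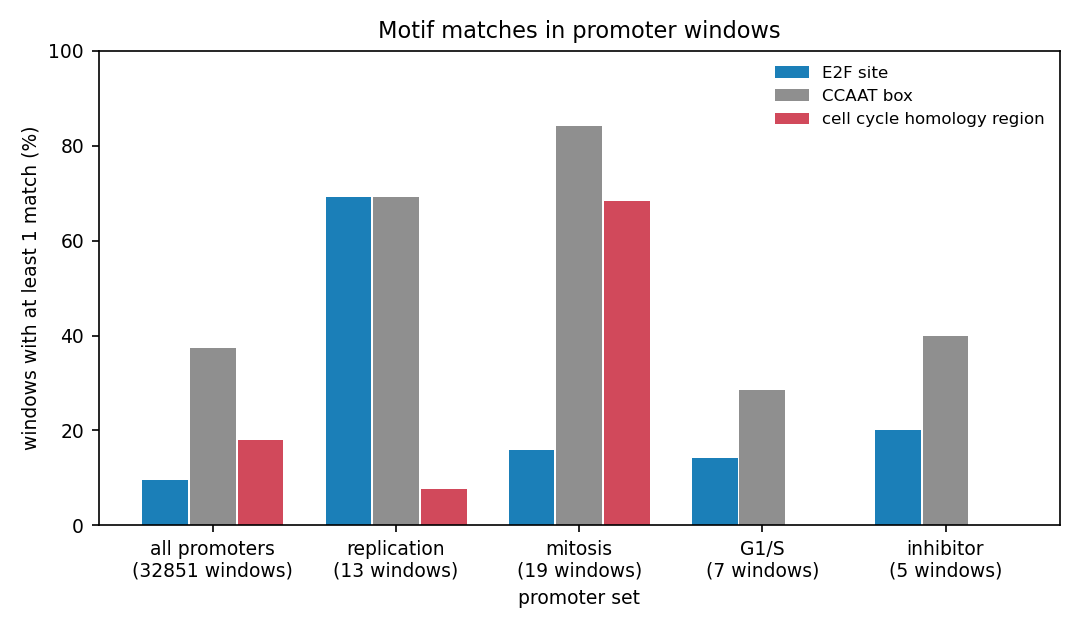
Share of 300-base promoter windows (vertical axis, percent, from 0) with at least 1 match on either strand to an E2F site, the CCAAT box or the cell cycle homology region, for all RefSeq promoters and for the windows of each role. E2F sites are in 69.2% of the replication windows and the cell cycle homology region in 68.4% of the mitosis windows.

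6 windows are printed as examples, picked after the values were seen, each 5′ to 3′ on the strand of its gene, with matches in capitals. Cdt1 (+ strand) and Mcm5 (+ strand), which rose in both steps, hold E2F sites. Top2a (- strand) and Cdk1 (- strand), which were higher in CD11c-positive cells, hold both mitotic elements, and Cdk1 holds E2F sites as well. Kif23 (- strand), which fell against WT_SD, holds 1 CCAAT box at bases 244 to 248 of its window and 1 TTTGAA at bases 253 to 258. The upstream of 2 windows of Cdkn1a (+ strand) holds 2 copies of ACATGT, the core of the known p53 response element, a search added after its values were seen. At least 2 copies of ACATGT are in 0.329% of all windows.
Cdt1 chr8:122567765-122568064: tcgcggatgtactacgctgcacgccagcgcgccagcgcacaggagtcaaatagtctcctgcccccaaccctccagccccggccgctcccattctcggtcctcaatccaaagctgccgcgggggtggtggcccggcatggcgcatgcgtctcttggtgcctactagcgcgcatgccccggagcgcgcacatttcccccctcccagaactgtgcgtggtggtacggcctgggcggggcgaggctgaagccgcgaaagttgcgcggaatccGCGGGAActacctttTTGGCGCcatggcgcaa
Mcm5 chr8:75109259-75109558: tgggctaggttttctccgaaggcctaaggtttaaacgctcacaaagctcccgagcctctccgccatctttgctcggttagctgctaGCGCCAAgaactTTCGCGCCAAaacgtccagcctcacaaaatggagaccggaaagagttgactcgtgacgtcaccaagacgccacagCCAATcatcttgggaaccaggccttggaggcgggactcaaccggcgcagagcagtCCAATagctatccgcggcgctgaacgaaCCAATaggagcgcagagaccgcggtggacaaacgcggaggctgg
Top2a chr11:99024140-99024439: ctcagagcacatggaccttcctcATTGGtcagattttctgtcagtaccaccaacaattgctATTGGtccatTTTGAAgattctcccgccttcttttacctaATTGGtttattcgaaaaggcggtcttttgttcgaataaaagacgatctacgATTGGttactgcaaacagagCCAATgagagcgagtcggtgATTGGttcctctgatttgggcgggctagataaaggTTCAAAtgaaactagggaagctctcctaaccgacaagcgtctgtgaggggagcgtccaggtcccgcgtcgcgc
Cdk1 chr10:69352863-69353162: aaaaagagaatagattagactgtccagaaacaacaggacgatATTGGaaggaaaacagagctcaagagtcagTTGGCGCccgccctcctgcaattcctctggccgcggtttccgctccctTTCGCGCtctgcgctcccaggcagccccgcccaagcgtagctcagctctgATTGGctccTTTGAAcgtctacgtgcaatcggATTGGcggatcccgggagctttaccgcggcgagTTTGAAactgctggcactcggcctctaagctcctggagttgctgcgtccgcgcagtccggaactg
Kif23 chr9:61946750-61947049: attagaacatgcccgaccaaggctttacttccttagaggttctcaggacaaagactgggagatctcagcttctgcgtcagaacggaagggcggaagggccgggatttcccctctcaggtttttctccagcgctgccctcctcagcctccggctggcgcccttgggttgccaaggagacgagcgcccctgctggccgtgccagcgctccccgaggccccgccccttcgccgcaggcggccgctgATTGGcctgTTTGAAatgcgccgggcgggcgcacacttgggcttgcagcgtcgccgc
Cdkn1a chr17:29090729-29091028: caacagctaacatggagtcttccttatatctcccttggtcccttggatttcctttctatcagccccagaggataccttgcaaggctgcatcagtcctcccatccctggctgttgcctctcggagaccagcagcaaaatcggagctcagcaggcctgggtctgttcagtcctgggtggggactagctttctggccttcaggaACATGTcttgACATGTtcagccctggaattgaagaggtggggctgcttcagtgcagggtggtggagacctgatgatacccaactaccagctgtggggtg

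Further genes of the same pathways were read from lists that do not overlap the 47 genes. Of 39 measured other replication genes, 26 were higher and 2 lower in CD11c-positive than in CD11c-negative MC4R_WD cells (all genes 29.9% and 23.2%). The median was 0.27. The polymerase gene Pole (0.88 ± 0.059) and the chromatin assembly gene Chaf1a (0.73 ± 0.11) led the rises. The falls were in the origin recognition gene Orc4 (-0.21) and in Gins3 (-0.20), of the helicase complex. Against WT_SD, 28 were higher and 6 lower in CD11c-negative cells, against 48.3% and 28.5% of all genes. With the percentile over probes detected on every array, the counts were 13 and 10, against 3980 and 6255 of all 13390 genes. As scaled here, the largest rises were those of Rpa2 (1.12 ± 0.054), which coats single strands, and Dctpp1 (0.92 ± 0.023), which clears unusual nucleotides. Pola2 (-0.52 ± 0.16), a subunit of the priming polymerase, and Gmnn (-0.31 ± 0.054), the inhibitor of Cdt1, were lower.

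Of 53 measured other mitosis genes, 48 were higher and 1 lower in CD11c-positive than in CD11c-negative cells (all genes 29.9% and 23.2%). Of the 48, 35 were at least 1.5-fold higher (all genes 4.79%), and the median of the 53 was 0.66. Nek2 (1.33 ± 0.12), a centrosome kinase gene, and Cdc25c (1.27 ± 0.2), the phosphatase gene that activates Cdk1, rose most. Pttg1, encoding securin, was the 1 gene that fell (-0.36 ± 0.029), and it was also lower in CD11c-positive cells than in WT_SD (-0.56 ± 0.029). Espl1, encoding separase, the protease that securin holds back, rose from WT_SD to CD11c-negative cells (1.04 ± 0.057) and to CD11c-positive cells (1.73 ± 0.057). Against WT_SD, 33 of the 53 were higher and 6 lower in CD11c-negative cells (all genes 48.3% and 28.5%). With the percentile over probes detected on every array, the counts were 18 and 15, against 3980 and 6255 of all 13390 genes.

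**Figure D5:**
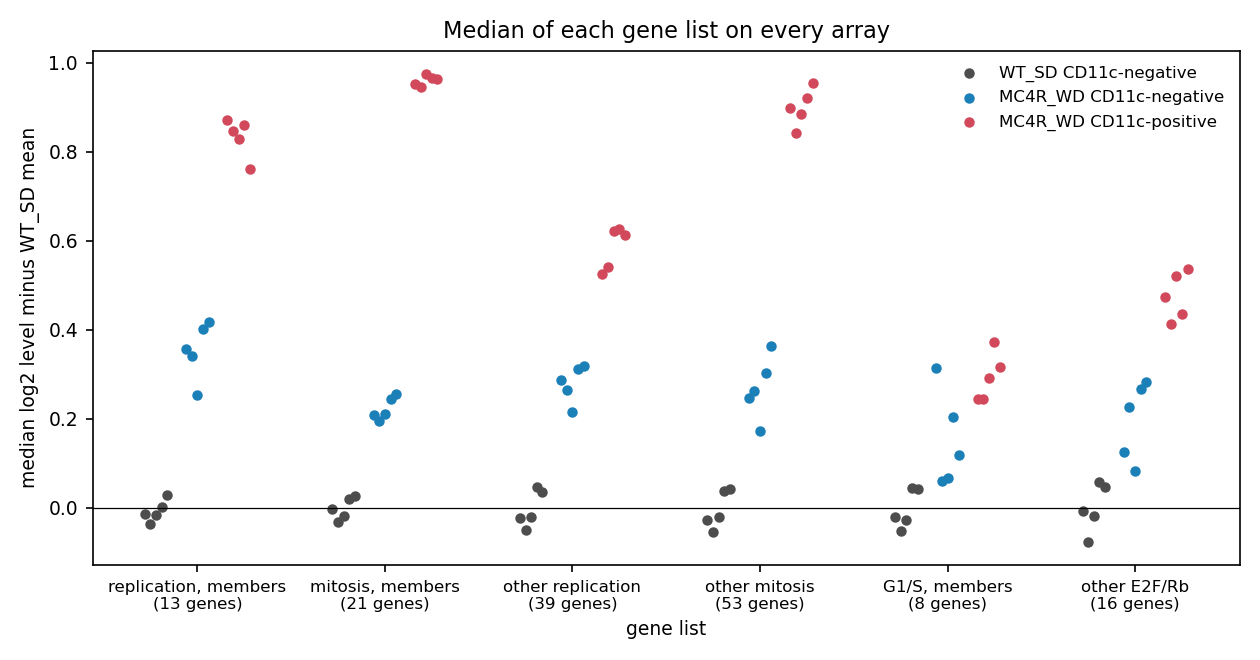
Median over the measured genes of each list of the log2 level minus the WT_SD mean (vertical axis), with 1 point per array and 5 arrays per group. On the CD11c-positive arrays the 21 mitosis genes lie between 0.95 and 0.97 and the 13 replication genes between 0.76 and 0.87; the heights of both MC4R_WD groups above 0 depend on the scaling, and their distance from each other hardly does.

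Of 16 measured E2F and pocket protein genes outside the 47, 10 were higher and none lower in CD11c-positive than in CD11c-negative cells, against a background of 29.9% and 23.2%. E2f8 (1.12 ± 0.049) and E2f7 (0.69 ± 0.13), which encode repressors of the family, rose most. Rb1, the retinoblastoma gene that holds E2F factors back, was 0.69 ± 0.035 higher in CD11c-negative cells than in WT_SD and 1.09 ± 0.035 higher in CD11c-positive cells. E2f3, an activator, was lower in CD11c-negative cells than in WT_SD (-0.48 ± 0.047).

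Other inhibitors and targets of p53 moved in both directions. Of 22 measured genes, 10 were higher and 8 lower in CD11c-negative cells than in WT_SD, near the background of 48.3% and 28.5%, with a median of 0.12 (all genes 0.13). The stress genes Gadd45b (1.86 ± 0.039) and Gadd45a (1.11 ± 0.045) rose most, and the inhibitor genes Cdkn2a (-2.05 ± 0.097) and Cdkn2b (-1.09 ± 0.07) fell most. Between the MC4R_WD groups, 12 were higher and 6 lower, against 29.9% and 23.2% of all genes. Pkmyt1 (0.83 ± 0.033) and Wee1 (0.70 ± 0.06), both kinase genes that restrain Cdk1, rose most, and Cdkn1c (-0.62 ± 0.052) fell most.

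Markers of other cells moved with the groups. Marker levels summed on the linear scale, relative to the 75th percentile of an array, are given for each list. Between the MC4R_WD groups, 29.9% of all genes tested were higher and 23.2% lower. Of all genes, 48.3% were higher and 28.5% lower than WT_SD in CD11c-negative cells, and 51.4% and 26.3% in CD11c-positive cells. The 10 granulocyte and precursor markers on the array summed to 407 to 427 in WT_SD. In MC4R_WD they summed to 1547 to 1694 on CD11c-negative and 636 to 670 on CD11c-positive arrays. Of the 10, 9, Mpo and Elane among them, were lower in CD11c-positive than in CD11c-negative cells, opposite to the mitosis genes. Against WT_SD, 9 were higher and 1 lower in CD11c-negative cells (median 4.75, all genes 0.13) and in CD11c-positive cells (median 2.63, all genes 0.16). Most division genes were also higher than in WT_SD in both groups, as scaled here. The 7 dendritic cell markers summed to 35.6 to 38.2, 20.7 to 22.9 and 46.0 to 49.6. Of the 7, 6 were higher in CD11c-positive than in CD11c-negative cells (median 2.95), the same direction as the mitosis genes. Xcr1 was not well above background on any CD11c-negative array. Against WT_SD, none was higher and 6 lower in CD11c-negative cells, and 5 were higher and 1 lower in CD11c-positive cells. T cell markers summed to 24.8 to 27.4, 18.8 to 24.4 and 20.1 to 23.5, with 7 of 9 higher in CD11c-positive than in CD11c-negative cells. Of the 9, 1 was higher and 7 lower than in WT_SD, both in CD11c-negative cells (median -1.11) and in CD11c-positive cells (median -0.33).

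Summed levels of the remaining lists given here were lowest in CD11c-positive cells. The B and plasma cell markers summed to 62.1 to 70.4 in WT_SD, 38.9 to 46.1 in CD11c-negative and 22.8 to 25.6 in CD11c-positive cells, with 3 of 6 measured markers lower between the MC4R_WD groups. Of the erythroid markers, Klf1 was not well above background on any array, and 3 of 4 measured markers were lower between the MC4R_WD groups. Hepatocyte markers summed to 82.7 to 91.5, 37.3 to 41.8 and 27.7 to 30.5, with 5 of 6 lower, and endothelial markers to 266 to 290, 164 to 172 and 106 to 110, with 5 of 6 lower. The liver macrophage markers summed to 2116 to 2299, 1714 to 1873 and 1437 to 1535. Between the MC4R_WD groups 6 of the 7 were lower and Itgax, the gene of the sort, was higher. In CD11c-negative cells against WT_SD 3 were higher and 3 lower (all genes 48.3% and 28.5%), with a median difference of 0.053. The differences ran from -2.90 to 1.72, and 2 rises and 3 falls reached 1.5-fold (all genes 14.0% and 12.2%). In CD11c-positive cells against WT_SD 2 were higher and 4 lower (all genes 51.4% and 26.3%), with a median of -0.32 and a range from -4.38 to 3.08. The part of dendritic cell, granulocyte and T cell RNA in the levels of the division genes was not tested.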

How the data were processed

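Per the file headers, each deposited scanner file holds the intensity of every spot of a one-colour Cy3 array (processed signal, from which the scanner software took off background and a spatial trend, with no scaling between arrays). The submitters' processing notes name Agilent Feature Extraction 10.7.3.1. The deposited table of the series holds log2 values that matched, within a median of 0.00146, the processed signal on a log2 scale after each array's 75th percentile and then the WT_SD median of the probe were subtracted. That table was used as an alternative.

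Control spots and outlier spots (113 to 190 of 62976 an array) were left out, spots of a probe were averaged, and each array's 75th percentile was subtracted on the log2 scale. A probe was kept if well above background on 4 of 5 arrays of at least 1 group (28175 of 55681 probes). Accessions were named through RefSeq tables, which gave 26582 named probes, and the brightest kept probe stood for a gene. limma 3.58.1 in R 4.3.3 was fitted to all 15 arrays with group means and no slide term, on 13390 genes, and its code was tested on simulated data. From 45.8% to 58.0% of spots an array were well above background and none was saturated. The number of arrays limits the precision. No arrays held identical values.

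All 47 genes may be named, and of the other lists the 2 largest called rises and falls per comparison. The genes and lists were chosen with earlier results of these data known. Alternatives tried were the background correction, the scaling, the filter, slide and replicate blocks, the probe rule, the limma prior, array weights, the deposited values and leaving out each array. With the slide as a block, 5 gene differences newly passed and none was lost. The summed level of the erythroid markers is not reported here.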

Additional observations from a re-analysis of the deposited data

Results flagged for a closer look

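Among 135 sets of 5 arrays (45 genes in 3 groups), 6 held 1 array whose gap to the nearest other array, divided by the range of the set, was above Dixon's critical value of 0.71. Chance alone gives about 1 such set in 20, or 6.75 of 135. Cdc6 stood at 0.90 on WT_SD array 2, against -1.70 to -1.45 on the other 4. Mcm7 stood at 3.30 on CD11c-negative array 3, against 3.41 to 3.46 on the others, and Ccna2 at 1.29 on CD11c-negative array 5, against 1.23 to 1.25. Ccnb1 stood at 1.08 on CD11c-negative array 1, against 1.18 to 1.20. Ccnd3 stood at 4.95 on CD11c-positive array 5, against 4.81 to 4.84, and Cdkn2c at 1.27 on CD11c-positive array 1, against 1.17 to 1.19. Without WT_SD array 2, all 3 comparisons of Cdc6 passed the threshold.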

How the results depend on the processing

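The contrast of the MC4R_WD groups depended least on the processing: from 36 to 40 of the measured genes were higher and 1 or 2 lower under the alternatives tried, with 1 lower under normexp background correction, where Cdkn1b did not pass. The median of all genes there was -0.072 with no filter. Against WT_SD in CD11c-negative cells, the lower genes numbered 5 with normexp, 9 with quantile normalization and 11 with the percentile over probes detected on every array, where the higher genes numbered 18. In CD11c-positive cells the lower genes numbered 5 with quantile normalization and 4 with that percentile. Quantile normalization turned CD11c-negative minus WT_SD to -0.076 for Ccnd3, -0.17 for Cdkn1b, -0.049 for Mcm3, -0.20 for Mcm6 and -0.070 for Tk1, and CD11c-positive minus WT_SD to -0.098 for Ccnd1 and -0.20 for Ccnd3. The percentile over probes detected on every array turned CD11c-negative minus WT_SD to -0.068 for the G1/S median, -0.019 for the mitosis median, -0.10 for the median of all genes, -0.025 for Bub1b, -0.076 for Ccnb1, -0.13 for Ccnb2, -0.019 for Cdc20, -0.14 for Cdkn1b, -0.089 for Kif11, -0.0043 for Mcm3, -0.054 for Plk1, -0.089 for Prc1, -0.029 for Tk1 and -0.13 for Tpx2. It turned CD11c-positive minus WT_SD to -0.083 for the median of all genes, -0.051 for Ccnd1 and -0.16 for Ccnd3. The percentile alternative shifts each array by a single offset, and the cause of that offset was not tested. Leaving out 1 array gave 32 to 35 higher and 3 to 4 lower genes against WT_SD in CD11c-negative cells, 38 to 39 and 2 between the MC4R_WD groups, and 40 to 42 and 2 against WT_SD in CD11c-positive cells; CD11c-negative minus WT_SD for Cdc6 ran from -0.43 to 0.22, the last without WT_SD replicate 2.

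Replicate numbers were not taken to pair the samples, since not every pair of same-numbered arrays had a correlation of deviations over 0.1: 11 of 15 did, the range was -0.198 to 0.373, and 9 of 15 arrays correlated best with their own number. The slide moved with these values: the 2 same-numbered pairs on different slides were the negative ones, and over all array pairs between groups, whatever their number, the median was 0.197 on the same slide and -0.184 on different slides. With the slide as a block, 5 of 135 gene differences newly passed (Aurkb, Ccnb2, Cenpe and Mcm6 in CD11c-negative cells against WT_SD, Tk1 between the MC4R_WD groups) and none was lost. With the replicate block, 36 genes were higher and 3 lower in CD11c-negative cells against WT_SD, 40 and 2 between the MC4R_WD groups, and 41 and 2 in CD11c-positive cells against WT_SD. Genes near background, Cdk6 and Aurkb among them, limit what the dimmest probes can show.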

Other observations

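Regulators of macrophage growth moved in both directions. Of 12 measured genes, 6 were higher and 4 lower in CD11c-positive than in CD11c-negative MC4R_WD cells (50% and 33.3%, against 29.9% and 23.2% of all genes). Bhlhe40, a transcription factor known to support the division of tissue macrophages, rose by 0.92 ± 0.05 between these groups and stood 1.42 ± 0.05 above WT_SD in CD11c-positive cells. Csf2ra, a receptor subunit for the growth factor GM-CSF, rose by 0.51 ± 0.032. Klf2, a transcription factor of quiescent cells, was lower in CD11c-positive than in CD11c-negative cells (-0.51 ± 0.021), as was Csf1r (-0.38 ± 0.043), the receptor for the growth factor CSF-1. In CD11c-negative cells against WT_SD, 5 were higher and 5 lower (41.7% each, against 48.3% and 28.5% of all genes). With the percentile over probes detected on every array, 3 were higher and 7 lower, against 3980 and 6255 of all 13390 genes. As scaled here, Il4ra, a receptor subunit for interleukin 4, stood at 0.86 ± 0.087. Klf4 (-0.90 ± 0.025), a factor of differentiation, and Csf1 (-0.75 ± 0.046) fell most.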
